A study of Mus musculus with 19 samples.

Results

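The mitochondrial genome encodes the core subunits of the respiratory chain, and 10 of its genes were followed here in ribosome-bound RNA from mouse spinal cord cholinergic neurons. They were the rows of the count table with the symbols ND1, ND2, ND4, ND5, ND6, COX1, COX2, COX3, CYTB and ATP6, which is 10 of 50559 rows, and all 10 passed the filter on low counts. The table also held the other 3 protein-coding genes of that genome, ND3, ND4L and ATP8, and its 2 ribosomal RNAs, mt-Rnr1 and mt-Rnr2. The rule used their symbols and no measured value.

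The animals were 10-wk-old male ChAT-Cre;RiboTag fx/+ mice on a C57BL/6J background, kept in 12 h of light and 12 h of dark. ChAT-Cre acts in cells that make choline acetyltransferase, and there the RiboTag allele puts a hemagglutinin tag on a protein of the cytosolic ribosome. Spinal cords were taken every 4 h at Zeitgeber Time (ZT, hours after lights on) 0, 4, 8, 12, 16 and 20, with 3 biological replicates per time point, and the tagged ribosomes were precipitated from a detergent homogenate. All 18 precipitates carried both alleles, were wild-type for the clock and received no treatment, and 1 further library came from input pooled ahead of the precipitation. The precipitate holds motor neurons together with every other cholinergic cell of the cord.

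Complex I takes electrons from NADH, complex III passes them to cytochrome c, complex IV hands them to oxygen, and complex V uses the resulting proton gradient to make ATP. Most of their subunits are encoded in the nucleus, made on cytosolic ribosomes and imported. The mitochondrial mRNAs are instead transcribed inside the organelle as long RNAs, cut out at the tRNAs between them, and translated on mitochondrial ribosomes. The tag is not part of mitochondrial ribosomes, so the level of these mRNAs in a precipitate also served as a measure of RNA that was not on tagged cytosolic ribosomes. Mitochondria of the tagged neurons and of their neighbours carry the same genome and cannot be told apart by these counts.

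Several of these genes overlap or have copies in the nuclear genome, which bears on how their reads could be assigned. In GENCODE M21 on GRCm38, ATP8 lies at chrM:7766-7969 and ATP6 at chrM:7927-8607 on the same strand, so that the last 43 bases of ATP8, in capitals, are also the first of ATP6.
ATP8 3′ end: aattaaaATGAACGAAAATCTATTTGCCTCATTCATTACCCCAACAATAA
ND5, at chrM:11742-13565, and ND6, at chrM:13552-14070, lie on opposite strands and share the 14 bases in capitals, each written 5′ to 3′ on its own strand.
ND5 3′ end: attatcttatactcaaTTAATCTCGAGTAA
ND6 3′ end: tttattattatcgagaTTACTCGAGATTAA
ND6 is the only one of the 13 protein-coding genes on the minus strand of the reference. The library kit preserved strand, and the sources used here do not state whether the counting used it.

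ATP6 and ND4L had exact copies on chromosome 1. The transcript of the pseudogene Gm10925, at chr1:24613974-24614651 on the minus strand, matched the first 678 of the 681 bases of ATP6 with 0 differences, and only the final 3 bases of ATP6, in capitals, lie outside the match.
ATP6 3′ end: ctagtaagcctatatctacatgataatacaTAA
Gm10925 3′ end: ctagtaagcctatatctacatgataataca
Gm10222, at chr1:24612407-24612700, matched 294 of the 297 bases of ND4L, which lies at chrM:9877-10173, in the same way. In the deposited table the rows of ATP6 and Gm10925 held identical values in all 19 libraries, as did the rows of ND4L and Gm10222, and 36.8% of the ATP6 values were not whole numbers. The values of ATP6 and ND4L are therefore given as the table has them and stand for 1 of 2 equal parts of the reads that fit both sequences. A search of the 13 mRNAs against all GENCODE transcripts found 17 nuclear genes that matched over at least 80 bases at 90% identity or more. Of these, Gm10925 and Gm10222 were the only 2 that were rows of the table.

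The remaining members also lie on chrM of GRCm38. ND1 spans 2751-3707, ND2 3914-4951, COX1 5328-6872, COX2 7013-7696, COX3 8607-9390, ND4 10167-11544 and CYTB 14145-15288, all on the plus strand. Each is a gene without introns.

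Libraries held 6302150 to 22406844 counts. In the pooled input the 10 genes took 5.95% of all counts, and in the 18 precipitates they took between 0.157% (ZT8 replicate 2) and 0.463% (ZT16 replicate 3). The input share was thus 12.9 to 37.9 times that of a precipitate. The labelled cell type was checked on 7 cholinergic markers, Chat among them, of which 6 were at least 2-fold higher than the input in the mean and higher in all 18 precipitates. Their summed level was 944% to 1129% of that of the input. Prph, the most abundant of the 7 in the precipitates, weighed most in this sum and had a log2 ratio to the input of 4.70. Chat had the lowest ratio of the 7, 1.64.

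Relative to the pooled input, all 10 members were lower. The input is 1 library, so no test was possible, and a gene was counted as lower where the mean of the 18 precipitates was at least 2-fold below the input and every precipitate lay below it. By that rule 23.6% of the 18925 genes compared were lower. The median log2 ratio of precipitate to input was -4.06 over the members and -0.21 over all genes compared. ND3, ND4L, ATP8 and both ribosomal RNAs were lower too. Levels here are in CPM, that is, counts relative to the scaled size of the library.

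The members differed in how little of them remained. ND5, a proton-pumping subunit of complex I, was at 1588 CPM in the input (95% Poisson interval 1570 to 1606, for counting error only) and at 36.9 ± 14.6 CPM (SD, n = 18) in the precipitates, 43.0-fold lower. Its ratio ranked 14 from the lowest among 11361 genes whose input count was 100 or more. COX1, the catalytic subunit of complex IV, went from 15618 CPM to 707.4 ± 174 CPM, a ratio of 22.1. CYTB, the cytochrome b of complex III, was 19.8-fold lower, ATP6, the proton-channel subunit of complex V, 17.2-fold, ND4 16.9-fold and ND2 16.5-fold. COX3 was 11.6-fold lower. The smallest differences were those of ND1 (4421 CPM against 512.8 ± 104 CPM, 8.62-fold), COX2 (6181 CPM against 722.9 ± 154 CPM, 8.55-fold) and ND6 (7.96 CPM against 0.934 ± 0.545 CPM, 8.52-fold). ND5 lay at least 24.5-fold below the input in its highest precipitate, whereas COX2 was at most 13.2-fold below in its lowest, so the ranges of these genes did not overlap.

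The short genes outside the list spanned a wider range. ATP8, a small subunit of complex V, was 94.2-fold lower and ND4L, a small subunit of complex I, 58.1-fold lower, whereas ND3 was 10.7-fold lower. ATP8 held 0 counts in 1 precipitate (ZT12 replicate 1), which allows up to 0.246 CPM there, and a median of 29.5 counts over the 18. The 12S ribosomal RNA mt-Rnr1 was 11.0-fold lower, from 2270 CPM to 206.3 ± 32.4 CPM, and the 16S ribosomal RNA mt-Rnr2 was 18.5-fold lower, from 3201 CPM to 173.5 ± 26.4 CPM.

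The members were set beside lists of markers of other cells and of non-coding RNAs. Summed over the list, the members stood at 3.37% to 9.65% of the input (median 6.58%) and the mitochondrial ribosomal RNAs at 5.16% to 9.99% (median 6.79%). The 7 oligodendrocyte markers, Mbp among them, stood at 7.22% to 13.7% (median 9.11%), the 6 astrocyte markers at 4.57% to 7.11% (median 5.88%) and the 6 microglia markers at 5.15% to 9.48% (median 6.38%). The range of the members thus overlapped those of all 3 glial lists, and also that of the 4 endothelial markers, at 7.04% to 14.3%. It lay below the inhibitory neuron markers (30.6% to 43.2%), the excitatory neuron markers (25.8% to 47.0%) and the erythrocyte markers (10.6% to 38.1%). None of the oligodendrocyte or astrocyte markers was at 0 in any precipitate, and P2ry12, a microglial receptor, was at 0 in 3. Small non-coding RNAs had a lower median, 1.82%, but their range of 0.855% to 5.15% overlapped that of the members. Among them Rn7sk had a log2 ratio of -3.32, and Rn7s1 and Rn7s2, with equal mean values at every time point, had -6.84. Nuclear long non-coding RNAs such as Meg3 and Neat1 stood higher at 29.9% to 68.1%. The inhibitory neuron markers and the nuclear long non-coding RNAs were mixed within. By the rule above 3 of 4 inhibitory neuron markers and 5 of 7 nuclear long non-coding RNAs were lower, where 23.6% of all genes compared were. Gad1, an inhibitory marker, had a log2 ratio of -0.10, and the long non-coding RNAs Rian and Mirg had -0.20 and 0.45. The part of other cells in the level of the members was not tested.

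**Figure D1:**
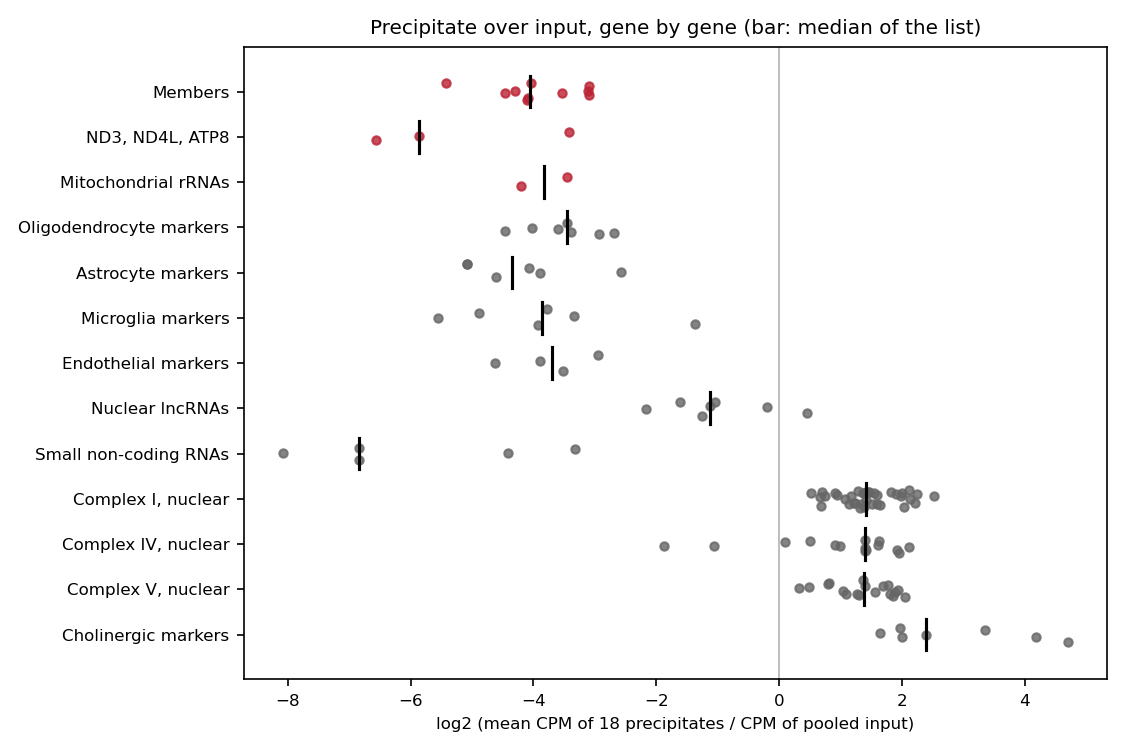
Each point is 1 gene, placed at its log2 ratio of mean CPM in 18 precipitates to CPM in the pooled input, with a bar at the median of each list. The mitochondrial genes (red) lie between -3.09 and -6.56, overlapping the glial marker lists, whereas the nuclear-encoded lists plotted, of complexes I, IV and V, have medians from 1.39 to 1.41.

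Nuclear-encoded subunits of the same complexes went the other way. Of 37 complex I genes, 30 were higher than the input by the same rule and 0 were lower, with a median log2 ratio of 1.41. The counts were 1 of 4 for complex II, with a median of 0.58, 6 of 9 for complex III, 9 of 15 for complex IV, of which 1 was lower, and 14 of 18 for complex V, the last 3 with medians of 1.17, 1.40 and 1.39. By the rule 13% of all genes compared were higher. Cox4i1, a nuclear subunit of complex IV, had a log2 ratio of 1.92, against -4.46, -3.10 and -3.54 for its partners COX1, COX2 and COX3. Atp5b, the catalytic beta subunit of complex V, had a ratio of 0.48 against -4.10 for ATP6.

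Within the precipitates the members spanned a wide range of levels per kilobase of transcript. COX2 was the highest at 1045 ± 222 CPM per kb (SD, n = 18), followed by COX3 at 553.0 ± 134, ND1 at 529.6 ± 106 and COX1 at 452.4 ± 109. COX2 was above COX3 in 18 of 18 libraries. COX3 and ND1 did not differ beyond their spread, COX3 being higher in 12 of 18, and ND1 was above COX1 in 15 of 18. CYTB (215.4 ± 74.9 CPM per kb), ATP6 (202.7 ± 64.4), ND4 (202.0 ± 73.3) and ND2 (177.9 ± 67.1) formed the next group, and the first 3 of these were within their spread of each other. Summed with its identical copy on the 19-library scale, ATP6 came to 410.4 CPM per kb, near COX1. ND5 followed at 19.99 ± 7.80 CPM per kb and ND6 at 1.78 ± 1.05. ND6 rested on 3 to 45 counts per library, so its values carry a large counting error.

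Time of day was examined next, with all 18 precipitates in 1 fit of edgeR over 15572 genes and Benjamini-Hochberg adjustment (false discovery rate, FDR) at 0.05. ND2, ND4, ND5, CYTB, ATP6 and COX1 fell between ZT0 and ZT8, by 0.66 to 1.48 on the log2 scale, whereas ND1, ND6, COX2 and COX3 did not pass the test. In bulk samples fewer cells of a type and less RNA per cell cannot be told apart. The share of all counts in the members averaged 0.396 ± 0.0656% (SD, n = 3) at ZT0 and was lowest at ZT8, with 0.247 ± 0.0787%. The mean was 0.278 ± 0.0553% for ZT4 and 0.302 ± 0.04003% for ZT12, and the night times ZT16 and ZT20 gave 0.371 ± 0.0874% and 0.354 ± 0.0714%.

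ND2, a proton-pumping subunit of complex I, moved most. Its level in replicates 1, 2 and 3 was 276.0, 217.9 and 316.3 CPM at ZT0, 158.5, 137.4 and 106.6 CPM at ZT4, and 153.1, 48.9 and 89.4 CPM at ZT8. It was 120.2, 189.9 and 190.6 CPM at ZT12, 182.5, 276.5 and 249.8 CPM at ZT16, and 207.1, 194.3 and 208.8 CPM at ZT20. All ZT4 and ZT8 libraries lay below all ZT0, ZT16 and ZT20 libraries. At ZT8 ND2 was 1.48 ± 0.28 (log2 change ± SE) below ZT0, which is 2.79-fold lower, with an FDR of 0.00523.

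ND4, also of the proton-pumping arm of complex I, measured 427.8, 328.6 and 447.6 CPM at ZT0 and 230.0, 85.0 and 164.5 CPM at ZT8. At ZT16 it measured 284.7, 411.0 and 391.8 CPM. The ZT8 libraries lay below those of both other times with no overlap, and the change from ZT0 to ZT8 was -1.33 ± 0.25 (FDR 0.00523). ND5 measured 54.3, 35.7 and 62.7 CPM at ZT0, 25.5, 11.7 and 21.9 CPM at ZT8 and 44.4, 58.6 and 47.3 CPM at ZT16. Its groups did not overlap either, and its change from ZT0 to ZT8 was -1.38 ± 0.27 (FDR 0.00593).

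CYTB showed the same pattern in complex III. It measured 359.5, 269.2 and 396.6 CPM at ZT0, 199.2, 68.1 and 168.6 CPM at ZT8, and 248.6, 332.3 and 354.2 CPM at ZT16, and its change from ZT0 to ZT8 was -1.24 ± 0.27 (FDR 0.00746). ATP6 measured 197.9, 133.1 and 218.9 CPM at ZT0, 118.1, 55.0 and 107.6 CPM at ZT8, and 138.0, 183.1 and 190.3 CPM at ZT16. Its change was -0.97 ± 0.26 (FDR 0.0146), and since Gm10925 held the same values it moved identically. COX1 measured 874.9, 658.7 and 975.4 CPM at ZT0 and 637.1, 330.4 and 619.6 CPM at ZT8, with a change of -0.66 ± 0.22 (FDR 0.0434). In each of these 6 genes, and also in ND1, COX2 and COX3, ZT8 replicate 2 was the lowest of all 18 libraries.

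The other 4 members did not pass the test between ZT8 and ZT0. ND1, the subunit of complex I at the quinone site, measured 519.1, 519.6 and 650.6 CPM at ZT0 and 464.8, 264.3 and 511.3 CPM at ZT8 (log2 change -0.45 ± 0.21, FDR 0.157). COX2, which receives electrons from cytochrome c, measured 754.0, 714.2 and 833.1 CPM at ZT0 and 651.8, 464.2 and 825.4 CPM at ZT8 (-0.25 ± 0.21, FDR 0.463). COX3 had a difference of -0.29 ± 0.24 (FDR 0.444). ND6, the member on the other strand, measured 0.675, 0.272 and 0.924 CPM at ZT0 and 0.613, 2.43 and 1.60 CPM at ZT8, a difference of 1.26 ± 0.68 with overlapping groups (FDR 0.216). Over the 10 members, Pearson's r of this difference was -0.64 with gene length and 0.694 with the log2 ratio to the input. Over all 13 protein-coding genes it was -0.329 and 0.651. These genes are not independent, so this is a description, and the part of length in the split was not tested.

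**Figure D2:**
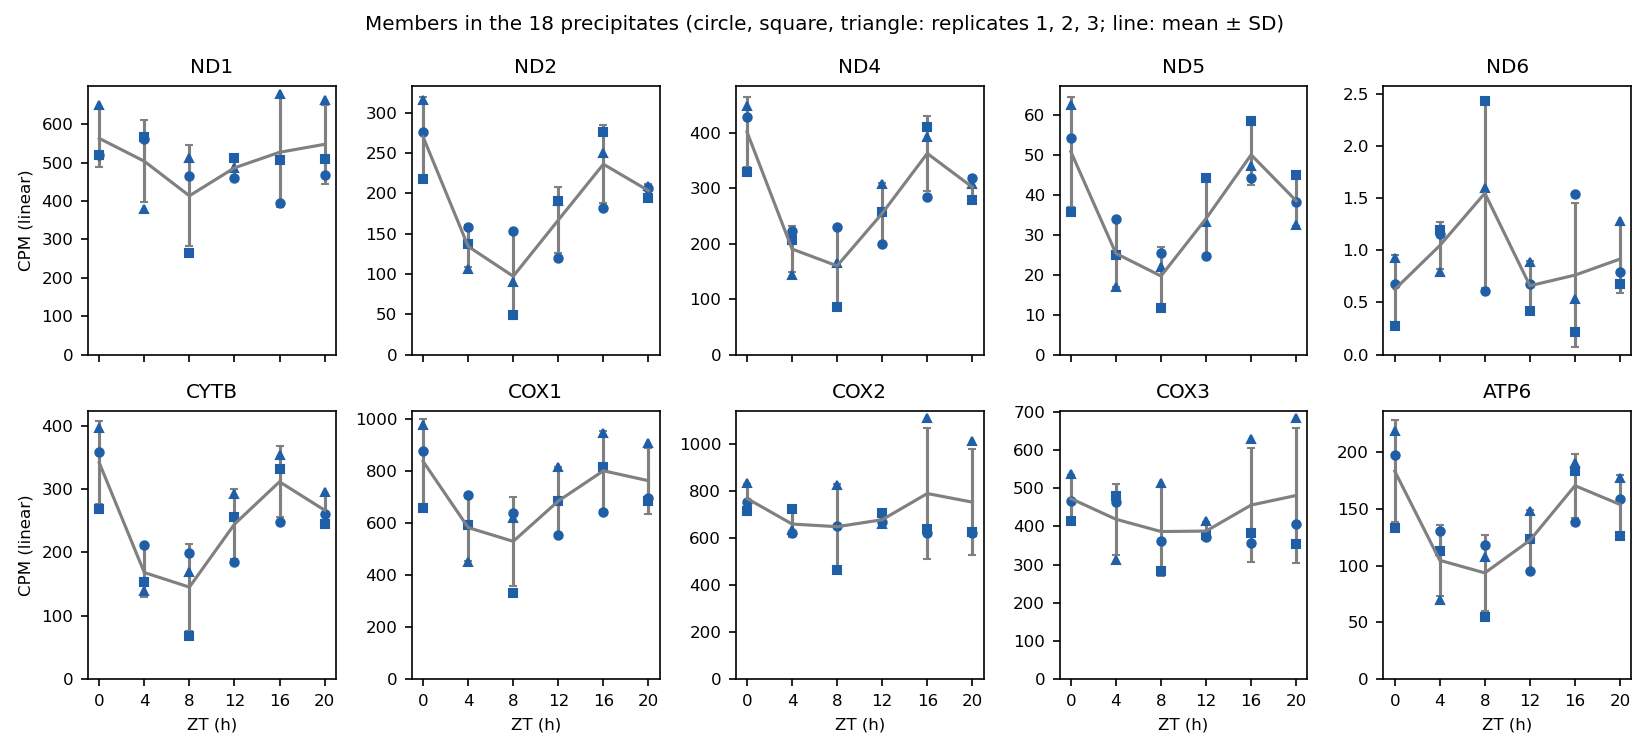
Level of each member in CPM on a linear axis against Zeitgeber Time in h. Symbols are the 3 replicates, and the line joins the means with bars of 1 SD. ND2, ND4, ND5, CYTB and ATP6 are lowest at ZT8 and highest at ZT0 in the mean, whereas the ZT0 and ZT8 groups of COX2 and COX3 overlap.

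In all, 6 of the 10 members fell between ZT0 and ZT8 and 0 rose, where 9.02% of all genes tested fell. In 7 of the 10 every ZT8 library lay below every ZT0 library, which held for 17.7% of all genes. The median log2 difference was -0.82 over the members and -0.003 over all genes. DESeq2 was run on 20704 genes, those with at least 10 counts in total, and called 3249 of them. It called 5 of the 10 members, COX1 being the one of the 6 that missed (adjusted p = 0.0515). Without ZT8 replicate 2, edgeR called 4 (ND2, ND4, ND5 and CYTB), with ND2 at -1.17 (FDR 0.0395), and 274 of all genes, against 2798 with every library.

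Between ZT8 and ZT16, 5 members rose and 0 fell, where 9.11% of all genes rose. ND5 rose by 1.35 ± 0.27 (log2 change ± SE, FDR 0.00699), ND2 by 1.29 ± 0.28 (FDR 0.00823), ND4 by 1.18 ± 0.25 (FDR 0.00812), CYTB by 1.10 ± 0.27 (FDR 0.0112) and ATP6 by 0.87 ± 0.26 (FDR 0.0259). COX1 differed by 0.60 ± 0.22 with no overlap of the groups but did not pass (FDR 0.0677). ND1, COX2 and COX3 differed by 0.35, 0.28 and 0.24, within an FDR of 0.281 to 0.550. Both comparisons share the ZT8 libraries, so they are not independent. Without ZT8 replicate 2, or without ZT16 replicate 2, edgeR called 0 of the 10 in this pair, and 87 and 72 of all genes, against 2633 with every library. Without ZT8 replicate 2 the FDR of ND2 was 0.0559 at a change of 0.97. ZT16 replicate 3 held the highest COX2 value of the 18 libraries, 1108 CPM, and without it the COX2 and COX3 differences were -0.035 and -0.056.

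**Figure D3:**
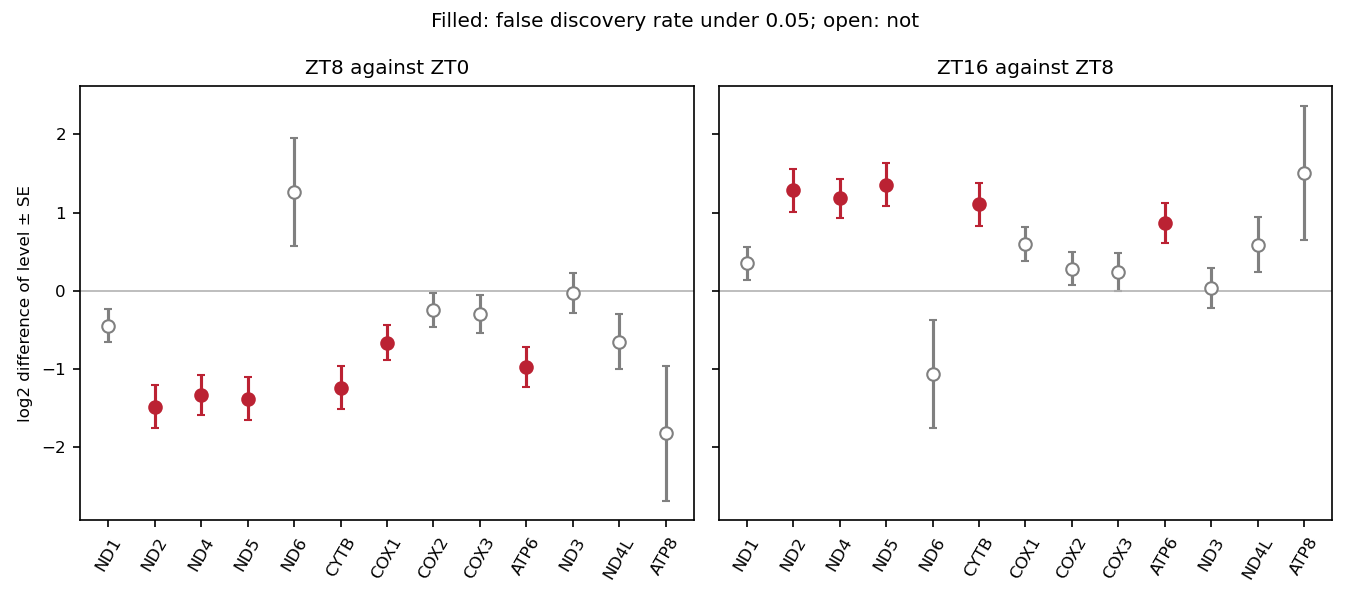
Log2 difference of level with its SE for the 13 mitochondrial protein-coding genes, ZT8 against ZT0 on the left and ZT16 against ZT8 on the right, with filled points where the FDR was under 0.05. In the left panel 6 genes are filled and lie between -0.66 and -1.48, and in the right panel 5 are filled, between 0.87 and 1.35.

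For ZT20 against ZT8 edgeR called 0 members, and 0% of all genes in either direction. At an unadjusted p under 0.05, which 11.9% of all genes passed upward, it gave 6 members. Each had all ZT20 libraries above all ZT8 libraries, which held for 10.5% of all genes. DESeq2 called 3 (ND2, ND4 and ND5) and 1075 of its 20704 genes. ND2 was 1.07 ± 0.28 higher at ZT20 by log2 (FDR 0.0684). Without ZT8 replicate 1 edgeR called 5 members and 2320 of 16109 genes, and without ZT16 replicate 3 it called 2 members and 578 of 16088 genes. In the other 12 pairs of time points edgeR called 0 members and 0 to 10 of the 15572 genes, which is 0.00803% over the 12 together. The most members at an unadjusted p under 0.05 were 6 in ZT4 against ZT0, where 9.82% of all genes were lower on that measure. DESeq2 called 4 members and 723 of its 20704 genes there. In that pair ND2 was 1.01 ± 0.27 lower at ZT4 (FDR 0.111) and ND4 1.07 ± 0.25 lower (FDR 0.106).

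The 24-h cosinor of edgeR called 5 members (ND2, ND4, ND5, CYTB and ATP6) at an FDR of 0.0388 to 0.0442, against 6.24% of all genes. Their fitted peaks lay between ZT19.3 and ZT19.8, in the dark phase, with amplitudes of 0.46 to 0.62 log2 units. In the mean, however, each of the 5 was highest at ZT0 and lower at ZT20 than at ZT16. For ND2 the means were 236.2 CPM at ZT16, 203.4 CPM at ZT20 and 270.1 CPM at ZT0. The fitted peak is thus a property of the cosine and not the time of the highest mean. The test for any difference among the 6 time points called 4 (ND2, ND4, ND5 and CYTB), against 6.74%. JTK_Cycle, a rank test for rhythms, called 0 members and 0.0385% of all genes, while before adjustment over genes 5 members passed, against 15.8%, all with a peak at 18 h on a 20-h template. The cosinor gave 0 members in 9 of the 18 fits that each left out 1 library. These libraries were replicate 1 of ZT12, ZT16 and ZT20, replicate 2 of ZT0, ZT4, ZT8 and ZT16, and replicate 3 of ZT4 and ZT8, and without ZT0 replicate 1 or 3 it gave 3 and 1. In the 9 fits it called 2 to 13 of all genes, against 972 with every library. The test among time points gave 0 without ZT0 replicate 1, ZT0 replicate 3 or ZT8 replicate 3, 1 without ZT4 replicate 2 and 2 without ZT16 replicate 1, and these 5 fits called 5 to 167 of all genes, against 1050.

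ND3, ND4L and ATP8 did not pass in any of these tests. ND3 differed by -0.02 ± 0.26 between ZT8 and ZT0, ND4L by -0.65 ± 0.35 (FDR 0.218) and ATP8 by -1.82 ± 0.86 (FDR 0.1501). The ribosomal RNAs, which come from the same strand, differed by 0.04 ± 0.16 (mt-Rnr1, FDR 0.890) and -0.17 ± 0.14 (mt-Rnr2, FDR 0.432). Their summed level averaged 394.5 CPM at ZT0, 379.8 CPM at ZT8 and 421.2 CPM at ZT16.

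The make-up of the members' reads also differed by time. ND2, ND4, ND5, CYTB and ATP6 together made up 32.0 ± 1.85% (SD, n = 3) of the members' counts at ZT0, against 22.2 ± 1.83% for ZT4 and 20.1 ± 4.73% for ZT8. Later times gave 26.7 ± 3.00% (ZT12), 30.9 ± 4.09% (ZT16) and 27.9 ± 3.69% (ZT20). ND1, COX2 and COX3 made up 46.6 ± 3.07% at ZT0, 58.6 ± 5.78% at ZT8 and 47.3 ± 5.12% at ZT16. In the input the same groups made up 34.9% and 32.6%. Both groups were formed after the values were seen, so this is a description.

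Across the 18 precipitates the level of some members ran closely together. On the log2 scale Pearson's r was 0.986 for ND2 with ND4 (Spearman's rho 0.981), 0.979 for ND4 with CYTB (rho 0.967) and 0.972 for COX1 with ATP6 (rho 0.938). It was 0.535 for ND4 with COX2 (rho 0.408), and it was -0.618 for ND2 with ND6 (rho -0.531). The points share scaling and libraries, and genes on 1 transcript are not independent, so these are descriptions.

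The cell type and RNA lists were followed over the same times. Over all genes tested, 8.95% rose and 9.02% fell between ZT0 and ZT8, and 9.11% rose and 7.8% fell between ZT8 and ZT16. The summed oligodendrocyte level averaged 2013 CPM at ZT0 (1827 to 2207), 1862 CPM at ZT8 (1744 to 2002) and 2257 CPM at ZT16 (1932 to 2887), and 1 of 7 markers fell between ZT0 and ZT8 and 1 rose between ZT8 and ZT16. Astrocyte markers averaged 174.5 CPM (165.3 to 185.3), 148.5 CPM (131.2 to 164.6) and 178.4 CPM (161.6 to 202.9) at the same times, with 0 of 6 called by edgeR in either pair. Of the 4 inhibitory neuron markers 2 fell between ZT0 and ZT8, with a median of -0.44, and their summed CPM ranged from 320.9 to 337.6 (ZT0) and from 245.8 to 299.4 (ZT8), with no overlap, and from 290.1 to 331.9 (ZT16). Of 5 microglia markers tested 1 rose between ZT0 and ZT8 and 1 fell between ZT8 and ZT16, and edgeR called 0 of the excitatory neuron, endothelial and erythrocyte markers in either pair. Of the 7 cholinergic markers 4 fell between ZT0 and ZT8 and 5 rose between ZT8 and ZT16, and their summed CPM ranged from 4295 to 4768 (ZT0), from 4230 to 4685 (ZT8) and from 4623 to 5027 (ZT16). The 7 nuclear long non-coding RNAs were higher in sum at ZT8, where they averaged 1169 CPM (994.2 to 1373), than at ZT0, with 806.3 CPM (621.5 to 922.2), and ZT16, with 932.1 CPM (825.7 to 1114). By edgeR 1 of the 7, Rian, rose between ZT0 and ZT8. The median log2 difference of the 7 in that pair was -0.06, so the higher sum did not stand for each of them. Meg3, the most abundant, weighed most in the sum, with means of 364.2 CPM at ZT0 and 594.4 CPM at ZT8 (edgeR FDR 0.0924).

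With the summed oligodendrocyte level in the fit, ZT8 against ZT0 gave 5 called members (ND2 at -1.42) and 2971 of all genes. The cosinor gave 0 members and 5 of all genes in that fit. With the summed nuclear long non-coding level in the fit, ZT8 against ZT0 gave 0 called members, and 0 of all genes, with ND2 at -1.41 (FDR 0.101). ZT16 against ZT8 still gave 5 members, and 1037 of all genes, against 2633 without the covariate. The part of these RNAs in the change of the members was not tested beyond these fits.

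**Figure D4:**
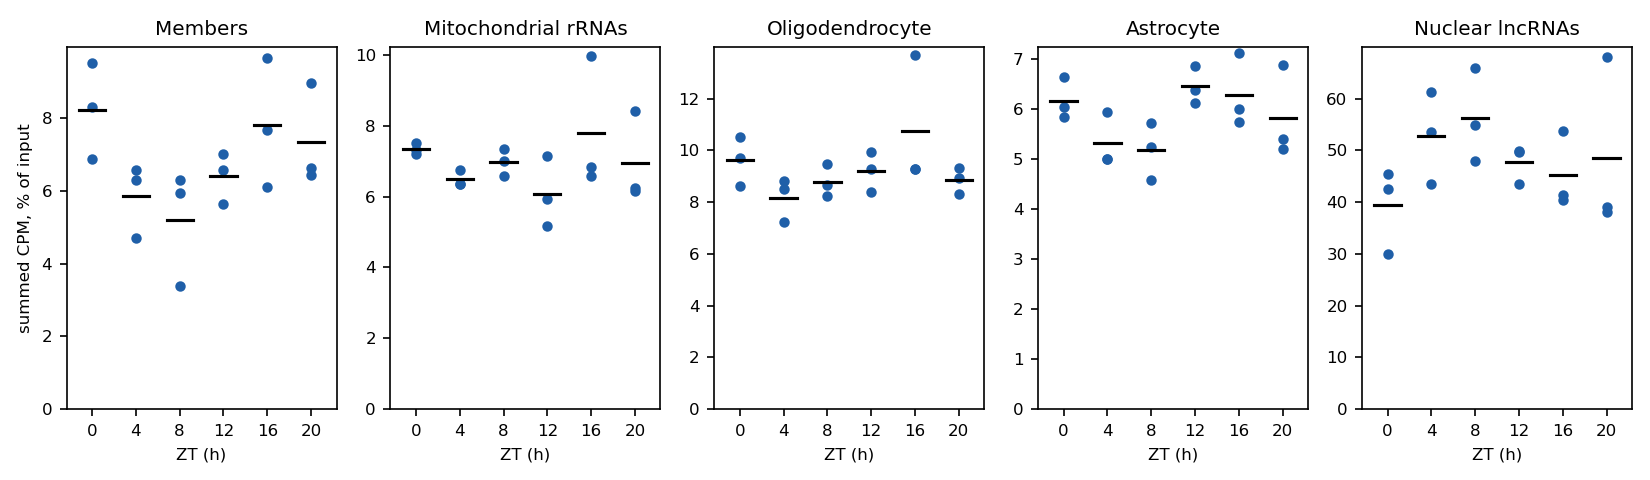
Summed CPM of 5 lists in each precipitate as a percentage of the same sum in the pooled input, against Zeitgeber Time in h, with a bar at the mean of 3 replicates. The members range from 3.37% (ZT8 replicate 2) to 9.65% (ZT16 replicate 3), and the mitochondrial ribosomal RNAs from 5.16% to 9.99%.

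The nuclear-encoded subunits of the respiratory chain were compared by the same fit. Of 82 tested, 43 rose and 11 fell between ZT0 and ZT8, with a median of 0.50, where 8.95% of all genes rose and 9.02% fell. Between ZT8 and ZT16 11 rose and 39 fell, where 9.11% of all genes rose and 7.8% fell. By complex, 22 of 37 complex I genes rose and 3 fell between ZT0 and ZT8. In complex III the counts were 3 and 3 of 9, in complex IV 9 and 0 of 14, and in complex V 9 and 4 of 18, while 1 of 4 complex II genes, which have no mitochondrial partner, fell. ZT20 against ZT8 gave 0 of 82 by edgeR, and 0 of all genes, so this count says nothing particular about these subunits.

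By name, Uqcrh, the hinge subunit of complex III, rose from 377.9 ± 73.0 to 908.0 ± 324 CPM (SD, n = 3) between ZT0 and ZT8, while CYTB of the same complex fell. Cox4i1 rose from 1201 ± 194 to 2194 ± 493 CPM (log2 change 0.87 ± 0.20, FDR 0.00835) and Cox5a by 1.05 ± 0.22. Ndufb8, an accessory subunit of complex I, rose by 0.65 ± 0.16. Some nuclear genes moved as ND2 did. Atp5b went from 1647 ± 104 to 857.1 ± 325 CPM (-0.94 ± 0.19, FDR 0.00620), Atp5a1 fell by 0.41 on the log2 scale, Uqcrc1, a core subunit of complex III, by 0.52, and Sdhb, the iron-sulfur subunit of complex II, by 0.40. Sdha, the flavoprotein subunit of complex II, did not pass (-0.16 ± 0.09, FDR 0.212).

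**Figure D5:**
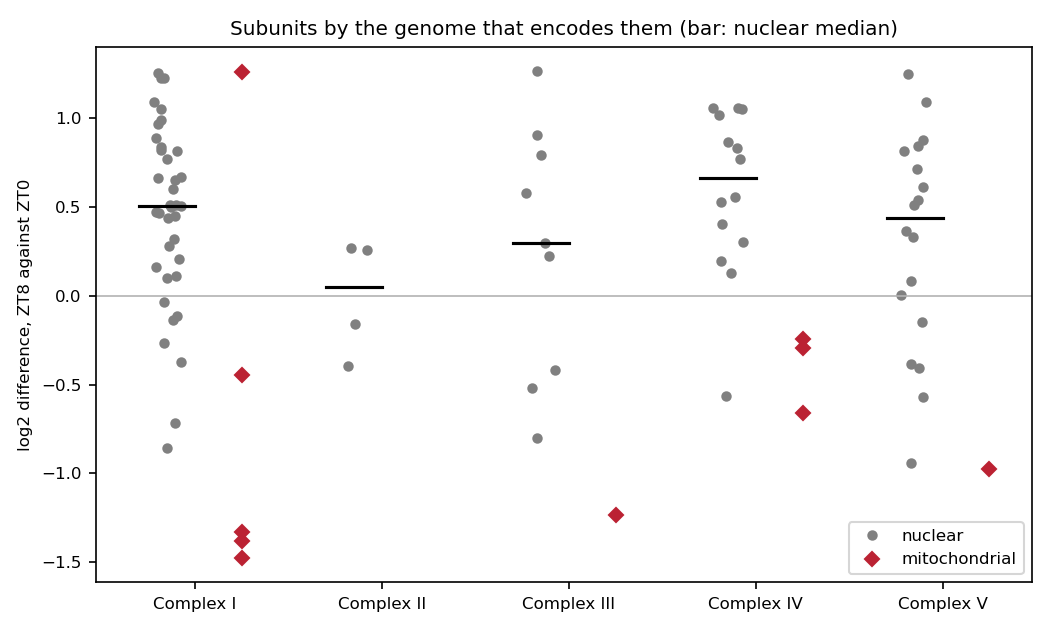
Log2 difference of ZT8 against ZT0 for the nuclear subunits of each complex (grey, bar at the median) and the mitochondrially encoded members (red diamonds). The nuclear medians lie between 0.05 and 0.66, and of the members only ND6, which did not pass the test, lies above 0.

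Genes that serve mitochondrial transcription, RNA stability and translation were also followed. Of 30 on the list, 0 rose and 2 fell between ZT0 and ZT8, and 3 rose and 2 fell between ZT8 and ZT16. Over all genes 8.95% rose and 9.02% fell in the first pair and 9.11% rose and 7.8% fell in the second. Lrpprc, which stabilises mitochondrial mRNAs, went from 154.8 ± 4.98 to 194.4 ± 32.7 CPM between ZT0 and ZT8 (0.33 ± 0.12, FDR 0.0549). Grsf1, of mitochondrial RNA granules, differed by -0.21 ± 0.11 (FDR 0.190) and Tbrg4, an RNA-binding protein of the organelle, by 0.16 ± 0.10 (FDR 0.304). Genes for proteins of the mitochondrial ribosome were taken by symbol, which also took in pseudogenes. Of 81 such rows tested, 26 rose and 6 fell between ZT0 and ZT8, with a median of 0.24.

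Among genes outside the mitochondrial genome, the level over 18 libraries was most like the mean log2 level of the members in Gm10925 (Pearson's r 0.982), whose row is identical to that of ATP6. Next came Zfp386 (r 0.877), C87436 (r 0.868), Slc38a3, an amino acid transporter (r 0.862), and Apoo, a protein of the inner-membrane cristae (r 0.847). Between ZT0 and ZT8 Apoo fell from 40.7 ± 3.45 to 17.3 ± 9.96 CPM (-1.25 ± 0.28, FDR 0.00820). The most opposite were Gcc1, a Golgi protein (r -0.905), Grb2, an adaptor of receptor signalling (r -0.876), Pigt (r -0.872), Twnk, the helicase of mitochondrial DNA (r -0.869), and Klc1, a kinesin light chain (r -0.867). Twnk measured 14.6 ± 2.21 CPM at ZT0 and 20.8 ± 5.87 CPM at ZT8 (0.52 ± 0.19, FDR 0.0574). These are the extremes of many genes compared over 18 libraries and are a description.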

How the data were processed

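RNA was measured in 18 ribosome precipitates (6 time points, 3 replicates) and 1 pooled input. Per the labels and the study's methods, the authors made strand-preserving poly(A) libraries, aligned reads with STAR to mm10 and quantified genes with RSEM. The deposited values are expected counts, which were not normalized and were rounded here to whole numbers. RSEM divides reads that fit several genes. Members and gene lists were chosen with earlier results of these data known.

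Genes were kept with filterByExpr (15572), scaled by TMM and tested in edgeR 4.0.16 (R 4.3.3) by quasi-likelihood F-test, with Benjamini-Hochberg adjustment over all genes at 0.05. Tests were a 24-h cosinor, any difference among 6 time points, and 15 pairs. JTK_Cycle used periods of 20, 24 and 28 h (18 templates), DESeq2 1.42.0 was an alternative, and log2 CPM carried a prior count of 2. The input comparison used TMM over 19 libraries, without a test. The scripts were tested on simulated data. Named genes were the members, the other genes of that genome, the 2 highest genes of each nuclear list, the 3 highest of each RNA or expression list, and the 5 highest and 5 lowest r. A gene that this rule names is not reported here. Sequences and positions came from GENCODE M21 (blastn 2.17.0). All samples were processed on 1 day, per the study's methods. P-values measure the spread between animals.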

Additional observations from a re-analysis of the deposited data

How the results depend on the processing

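Every one of the 10 members stayed below the input under every alternative run. With library totals the median log2 ratio of members moved from -4.06 to -4.38 and that of genes with at least 100 input counts from 0.01 to -0.31. For the time tests, the 4 other scalings and the summing of ATP6 and ND4L with their identical copies, which was chosen after seeing the data, changed no call of a member count by over 1.5 times. Keeping genes with 10 or more counts gave 1 member and 154 of all genes for ZT20 against ZT8. Keeping those with 1 or more gave 7 members and 1641 genes there, and 7 members and 2767 genes among the 6 time points. DESeq2 gave 3 members and 1075 genes for ZT20 against ZT8. The main fit called 0 genes in that pair and 1050 among the 6 time points. The oligodendrocyte covariate gave 0 by the cosinor and 2 among the 6 time points (5 and 568 of all genes), and the nuclear long non-coding covariate gave 0, 0 and, for ZT8 against ZT0, 0 (1, 0 and 0 of all genes). JTK_Cycle adjusted within the gene alone gave 5.

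The replicate numbers were not treated as paired in the main fit. Correlations of deviations ran from -0.151 to 0.176 for the same number and from -0.210 to 0.183 for different numbers. With the replicate block JTK_Cycle gave 3 members and 356 of all genes, against 6, and no other member count left the range of 1.5 times. JTK_Cycle with 24 h only, or with equal cosine values ordered by rounding, gave 0 as well.

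Leaving out 1 replicate number or 1 library, the cosinor gave 0 to 5 members, the 6-time-point test 0 to 5 and JTK_Cycle 0 to 1. Over all genes these fits called 0 to 2668, 0 to 2454 and 0 to 752. For members, ZT8 against ZT0 gave 0 to 6, ZT16 against ZT8 0 to 6 and ZT20 against ZT8 0 to 5. Over all genes these pairs gave 0 to 4010, 0 to 3885 and 0 to 2320, so the member ranges moved along with the calls over all genes. ZT8 against ZT0 gave 4 to 6 when 1 library was left out, and 0 without replicate 2 or 3 throughout, where edgeR called 0 of all genes in that pair. The mean share of counts was 0.303% to 0.340% against 0.325%.

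Of the differences of single members, COX2 and COX3 turned direction between ZT8 and ZT16 with the oligodendrocyte covariate (-0.073 and -0.057). Leaving out libraries, COX2 ran from -0.035 (without ZT16 replicate 3) to 0.50 and COX3 from -0.056 to 0.50 in that pair, and for ZT20 against ZT8 they ran from -0.049 and -0.016 (without ZT20 replicate 3) to 0.43 and 0.57. None of these passed the test. The cause of these differences was not tested. ND6, at 3 to 45 counts per library, limits what its values can show.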
